A study of Mus musculus with 18 samples.

Results

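Genes of the Iroquois (Irx) family and of the sine oculis family, which includes Six2, Six3 and Six6, encode homeodomain transcription factors. The repressive histone mark H3K27me3 is described here over 9 of them, in 4 genomic clusters, in a ventral forebrain region of the mouse embryo, the medial ganglionic eminence (MGE), which produces many cortical interneurons. Irx1, Irx2 and Irx4 form the IrxA cluster, Irx3, Irx5 and Irx6 form the IrxB cluster, Six3 and Six2 are neighbours, and Six6 was taken alone. The members were chosen by name, out of 20661 protein-coding genes on the autosomes. Each gene body was taken with 2.5 kb on either side, and the stretches between the genes of a cluster, called spacers here, were included. Over the 12 libraries, 67 merged regions of called intervals overlapped the 4 windows, of 15540 on the autosomes. Of these 67, 10 touched a member gene with its flanks and 57 lay in spacers, and 21 of the spacer regions were called in a single library. In all 12 libraries 19 regions were called, out of 2367 such regions on the autosomes: 1 for each of the 9 genes, 4 spacers of IrxA and 6 spacers of IrxB.

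H3K27me3 was mapped by bulk CUT&Tag, in which an antibody directs a transposase to chromatin that carries the mark. The 4 groups were E12.5 WT, E12.5 KO, E15.5 WT and E15.5 KO, where KO stands for loss of Ezh2, with 3 libraries each. Per the series' design, the embryos came from crosses in which every animal compared carried 1 copy of an Nkx2.1-Cre allele and the Ai9 reporter, which makes Cre-recombined cells fluoresce red, so that WT and KO differed at Ezh2. Cre was driven by Nkx2.1, so cells of the dissection outside that lineage would keep Ezh2. At E12.5 the whole MGE was taken, and at E15.5 dissection was guided by the fluorescence, per the labels' protocols. Embryos of 1 genotype were pooled where applicable, so a library can hold several embryos. The 6 heterozygous samples of the series were not analysed here. The interval lists hold no readout of the Ezh2 deletion itself.

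Ezh2 is the catalytic subunit of Polycomb repressive complex 2, which methylates lysine 27 of histone H3 and thereby marks developmental genes that are held silent. Irx genes pattern the neural tube, heart and retina, and sine oculis genes act in eye, forebrain, ear and kidney development. Six3 is needed for the anterior forebrain and eye, Six6 for the retina and hypothalamus, and Six2 keeps nephron progenitors of the kidney undifferentiated. Genes of this kind lie in CpG-rich chromatin and are typical Polycomb targets wherever they are not expressed.

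RefSeq promoters (GRCm38.p6) from 250 bases before to 50 after the start were at hand for 6 of the 9 members. All 6 were covered along their whole length by an interval in all 12 libraries, as were 1739 of 31396 autosomal promoters, or 5.54%. The 3 below are shown because the results turn on Six3, on its neighbour Six2 and on the IrxB cluster that Irx3 opens. Capitals mark each CG, which reads the same on both strands and occurs in 94.8% of all promoters.
Six3 promoter, chr17:85620584-85620883, plus strand: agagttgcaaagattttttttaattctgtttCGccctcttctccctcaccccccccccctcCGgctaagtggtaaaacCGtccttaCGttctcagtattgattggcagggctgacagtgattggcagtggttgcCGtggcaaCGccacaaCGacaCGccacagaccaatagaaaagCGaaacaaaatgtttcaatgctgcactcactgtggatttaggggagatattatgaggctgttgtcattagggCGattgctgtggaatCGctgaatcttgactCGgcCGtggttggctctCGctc
Six2 promoter, chr17:85688205-85688504, minus strand: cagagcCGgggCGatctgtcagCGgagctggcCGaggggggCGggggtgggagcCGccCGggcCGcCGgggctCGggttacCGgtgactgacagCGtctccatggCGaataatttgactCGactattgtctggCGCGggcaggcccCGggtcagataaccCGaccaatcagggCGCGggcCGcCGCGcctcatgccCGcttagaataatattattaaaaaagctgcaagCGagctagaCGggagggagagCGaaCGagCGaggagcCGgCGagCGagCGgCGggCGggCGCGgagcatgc
Irx3 promoter, chr8:91801605-91801904, minus strand: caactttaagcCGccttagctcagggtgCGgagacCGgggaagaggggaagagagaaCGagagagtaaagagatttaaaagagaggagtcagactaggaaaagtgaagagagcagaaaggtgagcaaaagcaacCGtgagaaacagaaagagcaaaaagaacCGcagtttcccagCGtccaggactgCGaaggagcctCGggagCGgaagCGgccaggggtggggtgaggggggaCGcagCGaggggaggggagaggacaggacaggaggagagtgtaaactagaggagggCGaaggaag
The Six2 promoter held 37 CG and the Six3 promoter 14, although the genes are neighbours. Irx3 also had 14, Six6 had 20, Irx2 had 25 and Irx4 had 31. The median over all autosomal promoters was 7, over those covered in all 12 libraries 19, and over the 24356 covered in no library 5.

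The depth behind these values was the mean read count per 200 bp window recovered from each list, which ranged from 0.0751 to 0.698. Counts summed over a region are given below as normalised counts, meaning counts divided by the depth and multiplied by the mean depth of 0.260. The E15.5 KO libraries (0.179 to 0.346) were all deeper than the E15.5 WT libraries (0.0751 to 0.150). At E12.5 the WT libraries (0.117, 0.698 and 0.481) spanned the KO libraries (0.212, 0.272 and 0.243). Only reads inside called intervals were counted, so a value depends on how much of a region was called, and covered lengths are given beside the counts. Chromosome X held 18.1% to 24.5% of covered bases in the 3 E12.5 KO libraries and 20.9% in E12.5 WT replicate 3, against 0.874% to 5.33% in the other 8. The members are all autosomal, and the part of this difference in the results was not tested. As a check of tissue, 7 of 10 MGE regulator genes and 5 of 6 dorsal pallium genes had an interval in all 12 libraries, as did 1 of 4 endothelial genes, Kdr, and 0 of 4 microglial genes. Intervals at genes of both lists mean that the mark alone does not identify the cells. In bulk tissue, fewer cells with the mark and less mark per cell cannot be told apart.

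The 9 gene regions stood among the most heavily marked of the genome. Mean normalised counts over the 12 libraries ran from 1284 at Irx6, above 86.7% of the 2367 regions, to 6219 at Irx2, above 97.0%. Per covered kb, Six2 (232) and Irx2 (230) were highest, above 99.2% and 99.1% of regions, and Six3 (83.5) and Irx6 (90.5) were lowest, above 87.6% and 88.7%. A gene region held from 1 to 7 intervals, with a median of 2 over genes and libraries, and Irx3 was split in every library. The largest interval held a median of 99.8% of the count, and at least 89.3%, and the widest block measured from 11.2 to 53.8 kb with a median of 23.4 kb. The spacers were lower per covered kb, from 11.2 at IrxB spacer 1 to 49.8 at IrxA spacer 2. IrxA spacer 2 (1713), IrxB spacer 5 (1615) and IrxA spacer 1 (1004) had the highest mean normalised counts among them.

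**Figure D1:**
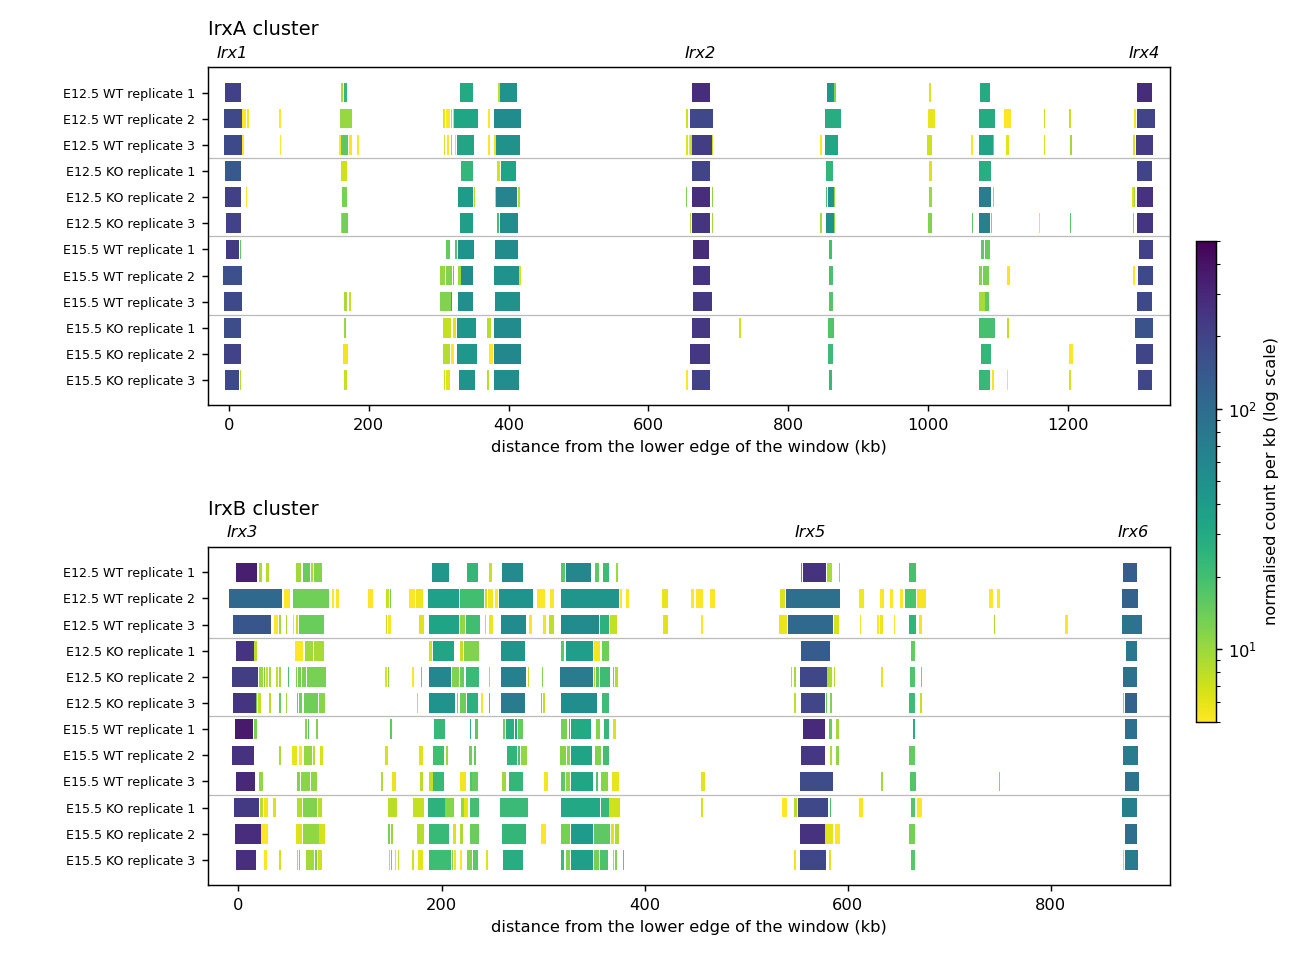
Map of the IrxA and IrxB clusters. Each row is a library and each bar a called interval at its distance in kb from the lower edge of the window, coloured by normalised count per kb on a log scale. The dark blocks at the 6 genes recur in all 12 libraries, and the paler spacer blocks of IrxB cover less in the 3 E15.5 WT libraries (80.6 to 114.8 kb) than in the E15.5 KO libraries (121.2 to 151.0 kb).

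Six3 was the member gene at which the mark differed between genotypes. At E12.5 the Six3 region (chr17:85600801-85634600, which also holds the antisense gene Six3os1) had 1886, 2273 and 1847 normalised counts in the WT libraries and 905, 1061 and 1023 in the KO libraries. The groups did not overlap, and the KO mean was about 0.498 of the WT mean. At E15.5 the values were 3916, 3484 and 4003 in WT and 3039, 3306 and 2437 in KO, which again did not overlap. Over both stages Six3 was lower in KO by a log2 change of -0.69 (SE 0.14, edgeR quasi-likelihood test, adjusted p = 0.00014). That call held in 22 of 22 alternative analyses, with changes from -0.77 to -0.39 and adjusted p up to 0.0218.

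By stage, the E12.5 change at Six3 was -1.01 (SE 0.26, edgeR adjusted p = 0.00333) and the E15.5 change -0.38 (SE 0.12, edgeR adjusted p = 0.115). The E12.5 call was lost without WT replicate 2 (edgeR adjusted p = 0.12) or WT replicate 3 (edgeR adjusted p = 0.0571). TMM factors, which set the typical region to no change, gave -0.46 at E12.5 (edgeR adjusted p = 0.12) and -0.40 at E15.5 (edgeR adjusted p = 0.0306). The median of all 3236 regions tested at E12.5 was -0.56 with depth scaling and -0.04 with TMM factors. Summed counts of the 6 dorsal pallium genes were also lower in E12.5 KO (18024 to 23082) than in E12.5 WT (23777 to 29449). Neurod2 had the largest counts of these 6, from 8229 to 13359 over the 12 libraries. Sums of the 10 MGE regulator genes overlapped and reached higher in E12.5 KO (23042 to 33135) than in E12.5 WT (21636 to 24659). Those of the 4 endothelial genes overlapped and reached lower in E12.5 KO (134.7 to 245.7 against 234.9 to 349.8). The part of these lists' signal in the Six3 result was not tested. The difference between the stages in the genotype effect on Six3 was 0.63 (SE 0.25, edgeR adjusted p = 0.0884).

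The Six3 difference was also present per covered kb. The region was covered over 25 to 33.8 kb in E12.5 WT and 27.2 to 28.0 kb in E12.5 KO, and per covered kb the normalised counts were 75.4, 67.2 and 57.0 against 32.3, 38.7 and 37.6. At E15.5 they were 157, 126 and 120 in WT against 95.6, 116 and 79.1 in KO. With covered length as an offset, the change over both stages was -0.67 (edgeR adjusted p = 0.0218), but at E12.5 alone -0.88 no longer passed (edgeR adjusted p = 0.533). At E12.5 that offset left 2 of all 3236 regions called lower in KO and 0 higher.

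Six2, the neighbour of Six3, was not called between genotypes. Its normalised counts at E12.5 were 6448, 5447 and 5354 in WT and 4043, 5372 and 5357 in KO, with WT replicate 1 high, KO replicate 1 low and the other four close together. At E15.5 they were 7593, 6628 and 6953 in WT and 6140, 7452 and 6088 in KO, and the groups overlapped. A ratio within the locus needs no depth scaling. Six3 took 25.9% ± 3.4 (SD, n = 3) of the summed Six2 and Six3 counts in E12.5 WT and 16.9% ± 1.2 in E12.5 KO, then 35.0% ± 1.3 in WT and 30.8% ± 2.3 in KO at E15.5. Library by library, the WT shares (22.6% to 29.4%, then 34.0% to 36.5%) lay above the KO shares (16% to 18.3%, then 28.6% to 33.1%). Mean covered lengths were 30.4, 27.5, 28.7 and 30.3 kb for Six3 and 31.1, 25, 25.4 and 27 kb for Six2, in the same order. With rising depth the Six3 share rose in both WT groups, to 29.4% and 36.5%. It fell in E15.5 KO, to 28.6%, and followed no order in E12.5 KO. This share was chosen after the values were seen and was not tested.

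**Figure D2:**
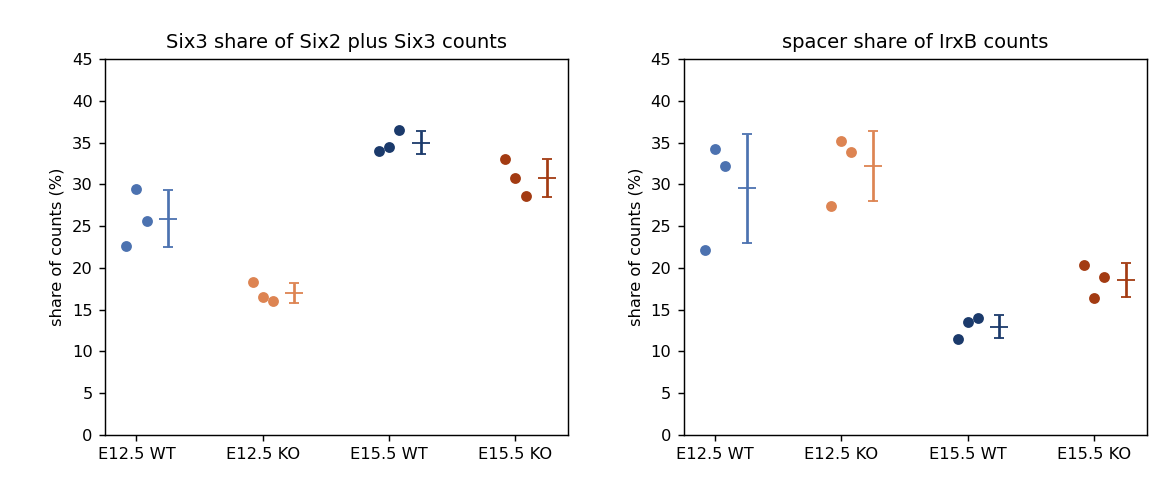
Shares of counts within a locus, in %, for each library (points) with group mean and SD (bars, n = 3). Left, Six3 of Six2 plus Six3, where WT lies above KO at both stages and E15.5 above E12.5. Right, spacers of all IrxB counts in regions called in every library, where E15.5 WT lies lowest at 11.4% to 14%.

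The other 8 gene regions were not called between genotypes with depth scaling. At E12.5, 1 of 22 member regions was called, Six3, and it was lower in KO, against 10.4% of all 3236 regions called lower and 0.340% higher. TMM factors and DESeq2 each called 3 member regions instead, all higher in KO and Six3 not among them. They were IrxA spacer 4, IrxB spacer 2 and IrxB spacer 4, with changes of 1.12, 0.74 and 0.61 by TMM factors (edgeR adjusted p = 0.0133, 0.0315 and 0.0306). Irx6, a member of IrxB expressed in retinal neurons, had 1781, 1970 and 1728 normalised counts in WT and 893, 1234 and 1355 in KO, and the groups did not overlap. Its change was -0.65 (SE 0.26, edgeR adjusted p = 0.0801). It was called lower in 2 alternatives, with a replicate block (-0.67, edgeR adjusted p = 0.0440) and without KO replicate 3 (-0.78, edgeR adjusted p = 0.0158). Those alternatives called 625 of 3236 and 1544 of 3240 regions lower, against 337 of 3236 in the main analysis. At Irx6 the covered length was 13.8 to 19.8 kb in WT and 11.2 to 13.8 kb in KO, and per covered kb the change was -0.20 (edgeR adjusted p = 0.997). At E15.5 Irx6 was level, with 1048, 1073 and 1229 in WT and 1055, 1095 and 943 in KO.

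Six3 and Irx6 were the 2 of 9 gene regions whose E12.5 KO libraries all lay below WT, where 36.5% of all regions did. At E15.5 only Six3 of the 9 lay wholly below, where 7.77% of all regions did. The remaining 7 gene regions at E12.5 changed by -0.25 (Irx5) to -0.02 (Irx4) with depth scaling and by 0.26 (Irx5) to 0.49 (Irx4) with TMM factors. Their direction thus depended on the scaling and none was called either way.

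With depth scaling, Irx1 and Six6 gave close means in the 4 groups. Irx1 had 4817, 4585 and 4564 normalised counts in E12.5 WT, 3343, 4812 and 4498 in E12.5 KO, then at E15.5 4576, 4448 and 4545 in WT and 4239, 5043 and 3678 in KO. For Six6 they were 3589, 3136 and 3122, then 2376, 3404 and 3059, then 3258, 3182 and 3398, then 3033, 3585 and 2953, in the same order. Irx2 ranged from 5016 to 7026, Irx3, which acts in limb and heart development, from 4487 to 7199, and its neighbour Irx5, a regulator of cardiac repolarisation, from 3749 to 6449. Group means of Irx5 ran from 4408 in E12.5 KO to 5906 in E15.5 WT. The Six6 window of 10.018 kb was covered over its whole length in every library. E12.5 KO replicate 1 was the lowest E12.5 KO library at all 9 gene regions, and leaving it out gave -0.94 for Six3 at E12.5 (edgeR adjusted p = 0.000124).

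**Figure D3:**
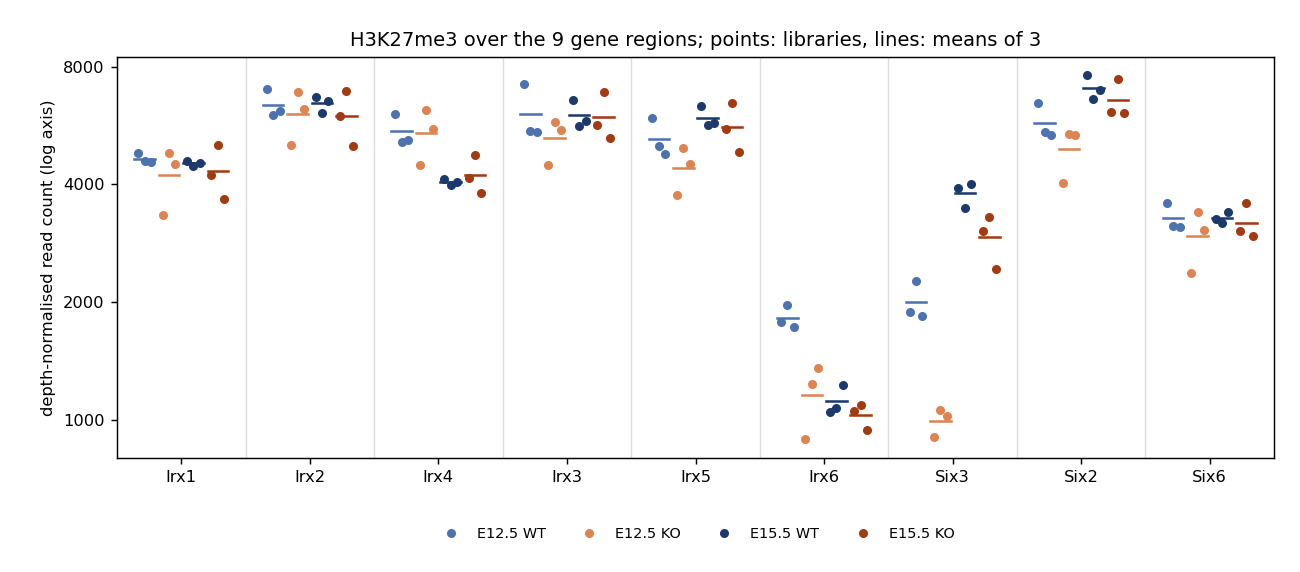
Depth-normalised read counts (log axis) over the 9 gene regions, by group. Points are libraries and lines are means of 3. Six3 is lower in KO at both stages and higher at E15.5 than at E12.5, Irx6 is highest in E12.5 WT (1728 to 1970), and at the other 7 the WT and KO libraries overlap at both stages.

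Between the Irx genes, 4 of the 11 spacers tested carried more mark in KO than in WT at E15.5. That count fell to 0 with covered length as an offset, where 0 of all 2774 regions were called higher and 3 lower. With depth scaling these 4 spacers were the ones called of 20 member regions, against 3.21% of all 2774 regions called higher and 1.69% lower. IrxA spacer 4 (chr13:73028801-73051800, no annotated gene) had 180, 169 and 158 normalised counts in WT and 434, 341 and 370.0 in KO, a change of 1.18 (SE 0.15, edgeR adjusted p = 0.000557). IrxB spacer 2 (chr8:91982401-92013400, over the predicted genes Gm36670 and Gm36843) had 249, 233 and 269 in WT and 521, 477 and 470.0 in KO. In both, the lowest KO library lay well above the highest WT library. The change at IrxB spacer 2 was 0.96 (SE 0.13, edgeR adjusted p = 0.000557).

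IrxB spacer 4 (chr8:92052201-92086200, no annotated gene) had 387, 350 and 371 in WT and 597, 564 and 549 in KO, a change of 0.63 (SE 0.11, edgeR adjusted p = 0.00458). IrxB spacer 5 (chr8:92112401-92174200, no annotated gene) changed by 0.45 (SE 0.12, edgeR adjusted p = 0.0381), a call that held in 8 of 16 alternatives and was lost without any 1 of 5 of the 6 libraries. The median change of the spacers tested was 0.45, against -0.08 for the 9 gene regions and -0.02 over all regions. All 3 KO libraries lay above all 3 WT libraries at 7 of the 10 spacers, where 13.4% of all regions did. At 9 of 9 gene regions they did not.

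These E15.5 differences moved with covered length, and the E15.5 KO libraries were the deeper ones. IrxB spacer 2 was covered over 10.8, 12.4 and 14 kb in WT and 25.2, 23.4 and 23.4 kb in KO, and per covered kb its counts were 23.1, 18.8 and 19.2 against 20.7, 20.4 and 20.1. With covered length as an offset, 0 of 20 member regions passed the edgeR test at E15.5 (2 at an unadjusted p below 0.05), and IrxB spacer 2 changed by 0.01 (edgeR adjusted p = 0.986) and spacer 4 by 0.24 (edgeR adjusted p = 0.676). IrxA spacer 4 kept a difference per covered kb, with 15.0, 12.6 and 11.6 in WT and 19.4, 23.7 and 20.6 in KO, but its change of 0.71 did not pass at E15.5 alone (edgeR adjusted p = 0.216). Summed counts of the 10 MGE regulator genes were also higher in E15.5 KO (16638 to 20533) than in E15.5 WT (12187 to 15556). So were summed counts of the 4 endothelial genes, again nearly all from Kdr (189 to 221 against 142 to 161). Those of the 6 dorsal pallium genes overlapped (18670 to 22295 against 21030 to 21923), and the 4 microglial genes were at 0. The part of depth and of these lists' signal in the spacer results was not tested.

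Over both stages 2 of 19 member regions were called: Six3 lower and IrxA spacer 4 higher in KO, against 5.87% of all 2367 regions called lower and 0.845% higher. IrxA spacer 4 changed by 0.88 (SE 0.21, edgeR adjusted p = 0.00225), and by 0.73 with covered length as an offset (edgeR adjusted p = 0.0424). It was called in 21 of 22 alternatives. At E12.5 it had 445, 674 and 656 normalised counts in WT and 468, 1190 and 1077 in KO, so that KO replicate 1 lay within WT and replicates 2 and 3 above it. The change at that stage was 0.62 (SE 0.30, edgeR adjusted p = 0.136), or 0.93 without KO replicate 1 (edgeR adjusted p = 0.00292).

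No member region was called for a difference in genotype effect between stages. The edgeR test called 0 of 19, with 6 at an unadjusted p below 0.05, against 6.21% of all regions called in either direction, and DESeq2 also called 0. That p misses the threshold does not show that the stages were alike: on simulated counts the test for this comparison recovered 20.5% of regions changed 2-fold.

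**Figure D4:**
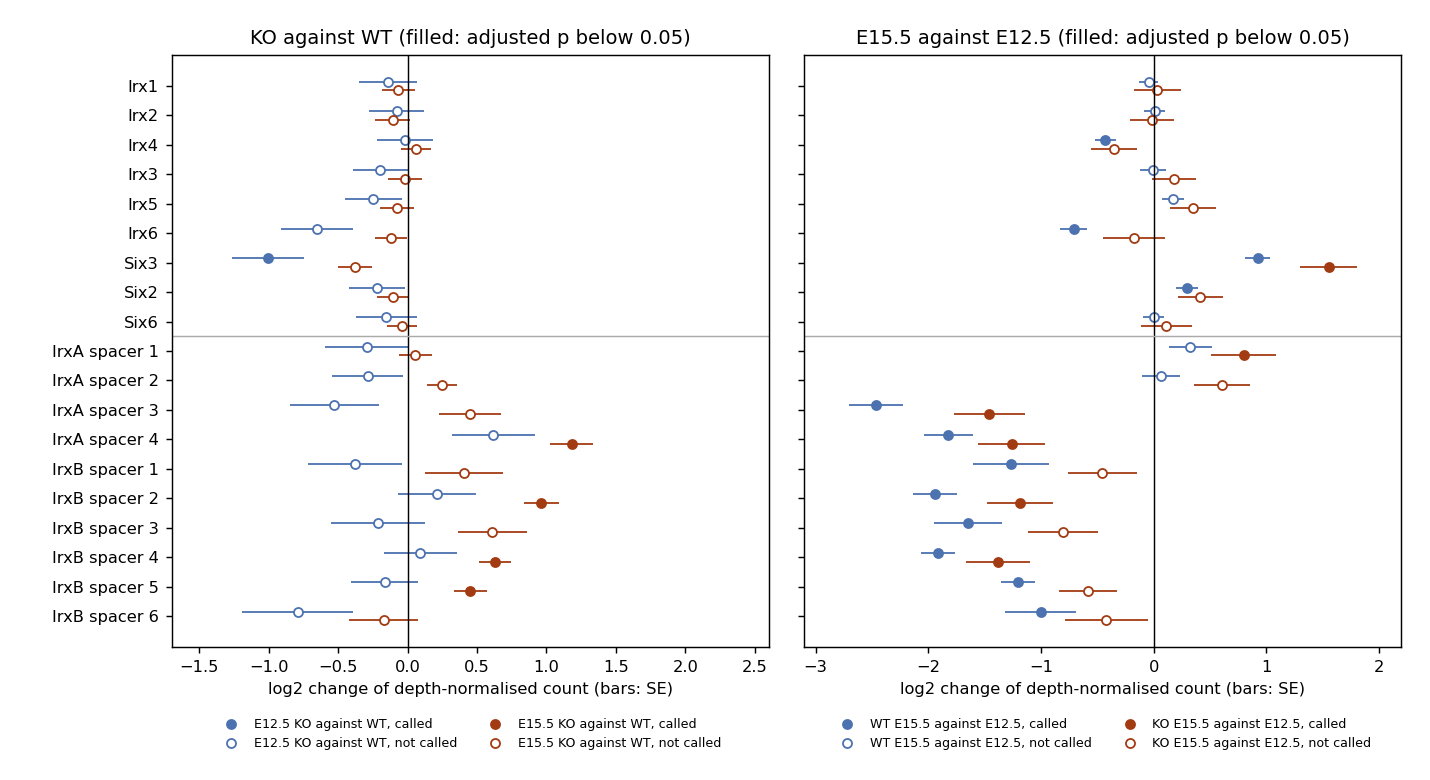
Log2 changes of depth-normalised counts with SE for the 9 gene regions and 10 spacers, KO against WT on the left and E15.5 against E12.5 on the right. Filled points have an adjusted p below 0.05. Six3 lies left of 0 at both stages between genotypes and right of 0 in both genotypes between stages, where 8 of the 10 spacers lie left of 0 in WT.

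Between E12.5 and E15.5, 8 of the 10 spacers of WT MGE were lower in the mark at E15.5, or 5 with covered length as an offset. With depth scaling 5 of the 9 gene regions were not called between these stages. In WT, 12 of 19 member regions were called, 10 lower at E15.5 and 2 higher, against 44.0% of all 2570 regions called lower and 3.81% higher. The median change of the spacers was -1.46, against -0.59 over all regions and 0.00 over the 9 gene regions. All 6 IrxB spacers fell, with log2 changes of -1.27, -1.94, -1.65, -1.91, -1.20 and -1.002 at spacers 1 to 6. IrxB spacer 4 went from 1177, 1569 and 1416 normalised counts to 387, 350 and 371 (edgeR adjusted p = 2.29e-06). IrxA spacer 3, over the non-coding gene D730050B12Rik, changed by -2.46 (edgeR adjusted p = 1.15e-05) and spacer 4 by -1.82 (edgeR adjusted p = 5.74e-05). TMM factors, which moved the median of all regions to -0.09, also called 12 of 19 but split them into 7 lower and 5 higher. Over all 2570 regions they called 570 lower and 415 higher. DESeq2 called 14 of 19, 6 lower and 8 higher, against 420 lower and 473 higher over all regions. Of the 9 gene regions it called 6 higher and 0 lower.

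E12.5 WT replicate 1 had a depth of 0.117, between those of E15.5 WT replicates 1 and 2 (0.0751 and 0.129), and at IrxB spacer 4 it had 56.6 normalised counts per covered kb against 23.1, 19.4 and 20.4 at E15.5. At IrxB spacers 2 and 5 it also lay above the 3 E15.5 WT libraries (42.6 and 42.7 against at most 23.1 and 24.3). At IrxB spacers 1, 3 and 6 it lay within their range, with 11.8 against 7.77 to 13.5, 23.5 against 11.1 to 23.8 and 19.4 against 15.2 to 27.9. With covered length as an offset, 122 of all 2570 regions were called lower. Among them were 5 spacers, IrxA spacers 3 and 4 and IrxB spacers 2, 4 and 5, with changes from -1.29 to -0.84. IrxB spacer 1, spacer 3 and spacer 6 did not pass then (edgeR adjusted p = 0.421, 0.374 and 0.745). IrxA spacers 1 and 2 stood apart from the others. Spacer 1 had 572, 1154 and 850.5 in E12.5 WT and 1162, 1175 and 1307 in E15.5 WT, and it was not called (edgeR adjusted p = 0.167). WT libraries of E15.5 lay wholly below those of E12.5 at 8 of 10 spacers, where 54.0% of all regions did, and wholly above at 1, where 4.56% did.

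**Figure D5:**
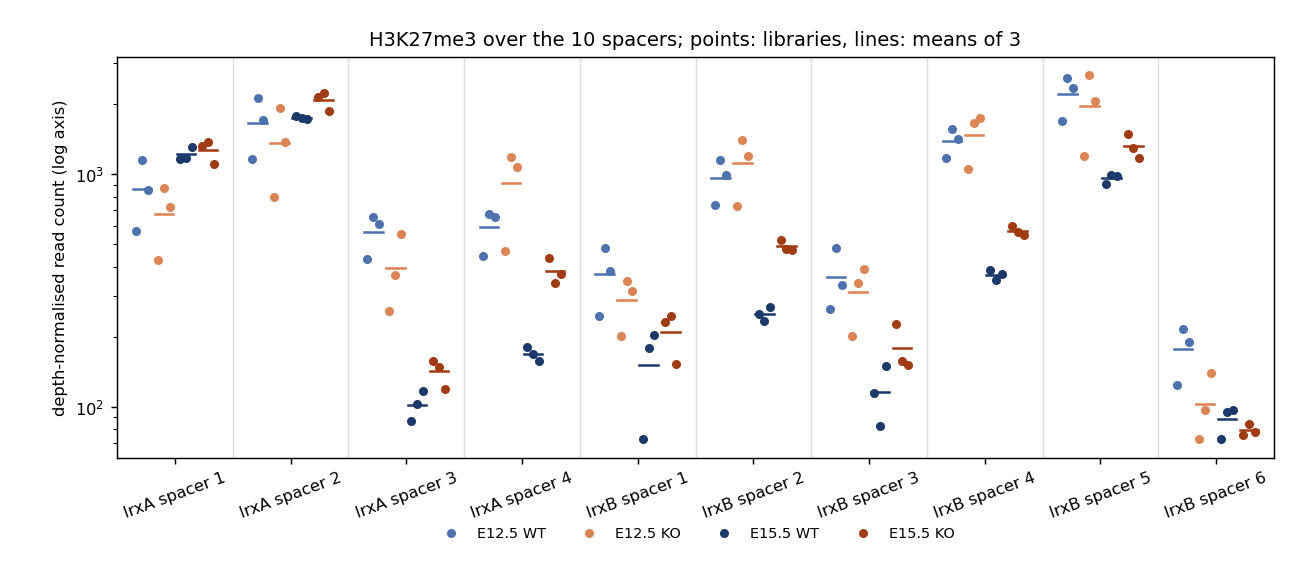
Depth-normalised read counts (log axis) over the 10 spacers called in all libraries. Points are libraries and lines are means of 3. At IrxA spacer 4 and IrxB spacers 2, 4 and 5 the E15.5 KO libraries lie between E15.5 WT and the WT libraries of E12.5, and IrxA spacers 1 and 2 show no fall with stage.

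Among the WT gene regions, Six3 rose with stage by 0.92 (SE 0.11, edgeR adjusted p = 5.13e-05), a call that held in 16 of 16 alternatives. Six2 rose by 0.30 (SE 0.10, edgeR adjusted p = 0.0257), which held in 10 of 16 and was lost without any 1 of 4 libraries. Irx4, known from the ventricular heart muscle, had 6060.0, 5129 and 5193 at E12.5 and 4130.1, 3982 and 4051 at E15.5, and fell by 0.43 (SE 0.09, edgeR adjusted p = 0.0035). Irx6 fell by 0.71 (SE 0.12, edgeR adjusted p = 0.000789). With TMM factors Irx4 changed by 0.03 and Irx6 by -0.23 (edgeR adjusted p = 0.152). With the same factors Six3 rose by 1.41.

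In KO, 7 of 20 member regions were called between stages, 2 higher and 5 lower at E15.5, against 6.20% of all 3145 regions called higher and 7.66% lower. Six3 rose by 1.55 (SE 0.25, edgeR adjusted p = 3.12e-08) and was called in 16 of 16 alternatives. IrxA spacer 1 rose by 0.80 (edgeR adjusted p = 0.0409), which held in 9 of 16 alternatives. IrxA spacer 3 changed by -1.46, IrxA spacer 4 by -1.26, IrxB spacer 2 by -1.18 and IrxB spacer 4 by -1.38, with edgeR adjusted p of 7.69e-05, 0.000443, 0.000866 and 3.48e-05. Without E12.5 KO replicate 2 the call was lost at IrxA spacer 4 (edgeR adjusted p = 0.0555) and at IrxB spacer 2 (edgeR adjusted p = 0.0678). KO libraries of E15.5 lay wholly below those of E12.5 at 4 of 10 spacers and wholly above at 1, where 12.6% and 15.0% of all regions did. The stage and genotype comparisons use the same libraries, so their values are set side by side and are not independent.

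The share of IrxB counts that lay in spacers, which again needs no depth scaling and was not tested, put the 4 groups in 1 view. It was 29.5% ± 6.5 (SD, n = 3) in E12.5 WT and 32.2% ± 4.2 in E12.5 KO, then 13.0% ± 1.4 in WT and 18.5% ± 2.0 in KO at E15.5. E12.5 WT replicate 1 was low in its group at 22.1%, still above every E15.5 library. Mean covered spacer lengths were 159, 144, 101 and 140 kb and gene region lengths 112, 71.1, 66.7 and 80.2 kb, in the same order. Per covered kb the spacers held 34.6, 36.3, 19.5 and 20.4 normalised counts. Within E12.5 WT the IrxB spacer share rose with depth (22.1%, 32.2% and 34.3% at 0.117, 0.481 and 0.698). It did so in E12.5 KO and E15.5 WT too, but not in E15.5 KO. The part of depth in this share was not tested. In IrxA the spacer share was 18.2% ± 5.1 and 17.1% ± 3.4 in WT and KO at E12.5, then 17.7% ± 0.46 and 21.1% ± 1.3 at E15.5, with single libraries from 12.7% to 22.6%, both in E12.5 WT.

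No whole cluster passed a test between genotypes after adjustment. Over both stages the summed counts changed by -0.05 at IrxA (p = 0.63), -0.10 at IrxB (p = 0.465), -0.30 at Six2-Six3 (p = 0.01) and -0.12 at Six6 (p = 0.24), by exact two-sided permutation tests over 400 assignments with a smallest p of 0.005. Covered bases changed by -0.07 at IrxA (p = 0.70), 0.01 at IrxB (p = 0.945) and -0.09 at Six2-Six3 (p = 0.62) in the same exact tests. Adjusted over these 8 measures, which include the constant covered length of Six6, the Six2-Six3 count had p = 0.08 in the exact test. Covered bases of IrxB were 311 ± 117 kb in E12.5 WT and 217 ± 25 kb in E12.5 KO, then 170.5 ± 31 and 235 ± 33 kb at E15.5 (SD, n = 3), of a window of 887 kb.

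The mark ended near the cluster edges. Of the nearest protein-coding neighbours, Adamts16, Ndufs6, Mmp2, Camkmt, Srbd1 and 4930447C04Rik had a median of at most 2.53% of the gene body covered. Fto, beside Irx3, had an interval in all 12 libraries and a median of 12.8% covered, from 1.01% to 37.3%.

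A list of 19 related genes (among them the Eya and Dach cofactors and TALE homeobox relatives of Irx) had called members, with list medians of -0.57 at E12.5 and -0.05 at E15.5 between genotypes, against -0.56 and -0.02 over all regions. At E12.5, 11 of the 19 had a region called in every library, and 2 were lower and 0 higher in KO: Meis1 by -1.75 (SE 0.32, edgeR adjusted p = 3.22e-06) and Meis2 by -1.07 (SE 0.32, edgeR adjusted p = 0.0158), where 10.4% of all regions were called lower. DESeq2 called 1 lower, Meis1, and 1 higher, Dach1 (1.69, DESeq2 adjusted p = 0.0128), and Meis2 did not pass (DESeq2 adjusted p = 0.0582). At E15.5 the same 2 of 9 testable genes were lower in KO, where 1.69% of all regions were, Meis1 by -0.79 (edgeR adjusted p = 0.0247) and Meis2 by -1.08 (edgeR adjusted p = 0.0238). Both encode TALE homeodomain cofactors. For the difference in genotype effect between stages 1 of 9 was called, Meis1 (1.06, edgeR adjusted p = 0.0465), where 6.21% of all regions were. TMM factors and DESeq2 called 0 of the 9 there. In WT between stages 3 of 9 were lower at E15.5, beside 44.0% of all regions called lower, Meis1 by -1.21, Meis2 by -1.27 and Tgif1 by -0.79 (edgeR adjusted p = 0.000166, 0.00201 and 0.0179). With TMM factors 2 were lower and 1 higher, and Tgif1 did not pass (-0.28, edgeR adjusted p = 0.144). In KO between stages Meis2 was lower (-1.25, edgeR adjusted p = 0.00112) and Eya2, a phosphatase and transcriptional cofactor, was higher (1.19, edgeR adjusted p = 0.00857). These were the calls among 11 genes, beside 7.66% of all regions called lower and 6.20% higher. TMM factors called 1 lower and 2 higher, and DESeq2 1 lower and 3 higher.

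Regions with the most similar profile over the 12 libraries lay at other genes of developmental transcription factors. By Pearson correlation of log2 normalised counts, the region of Nkx2-2 was closest to Irx2 (r = 0.97) and that of Foxd2 and Foxe3 to Irx3 (r = 0.97). Sox14 (r = 0.97) and Foxb1 (r = 0.97) were closest to Six2, and Foxl2 (r = 0.98) and Tlx3 (r = 0.97) to Six6. The points share libraries and their depth, and these are descriptions over 12 libraries without a test.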

How the data were processed

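H3K27me3 CUT&Tag libraries of WT and Ezh2 KO MGE at E12.5 and E15.5 (3 each) were grouped by their labels. The authors deposited 1 interval list per library with a whole-number read count and a score for each interval. The submitters' processing notes name cutadapt, Bowtie2, SAMtools, Picard, deepTools and SICER and the build GRCm38/mm10, without roles or versions. Intervals lie on a 200 bp grid with gaps of at least 800 bp, so broad domains can be joined and weak ones missed. The scores deposited by the authors equalled, in single-window intervals, the negative natural log of a Poisson probability, which gave the mean count per window used as depth (largest misfit 0.004). That this is proportional to total reads is an assumption.

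Intervals were merged over the libraries compared. Counts per autosomal region called in every library were tested with edgeR 4.0.16 (quasi-likelihood test, library sizes proportional to depth, Benjamini-Hochberg adjustment over all regions, threshold 0.05) in R 4.3.3. SE is the change over the square root of F. Alternatives were TMM factors, sums of autosomal counts, DESeq2 1.42.0, all chromosomes, merging within 3 kb, at most 2 libraries missing, a mean count of at least 50, scores above the list median, a replicate block, leaving out each library and, added after seeing the data, covered length as an offset. Cluster totals used exact permutation tests. On simulated counts with 200 regions changed 2-fold, 23.5% were recovered at E12.5 with 2 false calls, 87.5% at E15.5 with 11, and 95.5% over both stages with 6. A stretch outside every called interval contributes no reads.

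The members and lists were chosen with earlier results of these data known. Named are all 9 members, related genes where called, the nearest protein-coding neighbours and the 2 regions most alike per cluster. Some genes under this rule are not reported here. Spacers are numbered by position. Other software was Python 3.11.15, numpy 2.4.6, pandas 2.3.3, scipy 1.17.1 and matplotlib 3.10.9. The labels call the samples biological replicates, and libraries of a group were not identical.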

Additional observations from a re-analysis of the deposited data

How the results depend on the processing

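Six3 and IrxA spacer 4 over both stages, and Six3 between stages, kept their direction in every alternative run, and lost no call except IrxA spacer 4 with up to 2 libraries missing. For E12.5 KO against WT, 1 member region was called. TMM factors and DESeq2 each called 3, all spacers and all higher in KO. There were 2 with autosomal sums and 0 with covered length as an offset, where 2 of all 3236 regions were called lower and 0 higher. On leaving out 1 library 0 to 6 were called (6 without KO replicate 3, 0 without WT replicate 2 or 3). Without KO replicate 3, 1544 of all 3240 regions were called lower. For E15.5 KO against WT, 4 became 0 with covered length as an offset, where 3 of all 2774 regions were called lower and 0 higher. Over both stages, 2 became 5 with TMM factors, 6 with DESeq2, 4 with autosomal sums and 1 with up to 2 libraries missing, and 2 to 4 on leaving out 1 library (4 without E12.5 KO replicate 1). For the difference between stages, 0 became 1 with scores above the list median and 0 to 3 on leaving out 1 library (3 without E12.5 KO replicate 3). Without that library 1071 of all 2367 regions were called for this difference. In WT between stages 12 became 6, and in KO between stages 7 became 4, with covered length as an offset. With that offset 47 of all 2570 regions were called higher and 122 lower in WT. In KO 32 of all 3145 regions were called higher and 62 lower. The count of member regions in KO between stages became 13 with autosomal sums and 5 to 11 on leaving out 1 library (11 without E12.5 KO replicate 1).

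Directions turned with the scaling at E12.5 for KO against WT. With TMM factors the log2 changes were 0.37 at Irx1, 0.43 at Irx2, 0.49 at Irx4, 0.31 at Irx3, 0.26 at Irx5, 0.28 at Six2 and 0.35 at Six6. With DESeq2 they were 0.42, 0.49, 0.55, 0.36, 0.32, 0.33 and 0.41, and with autosomal sums 0.12, 0.19, 0.25, 0.079, 0.027, 0.048 and 0.11, in the same order. With covered length as an offset Irx2, Irx3 and Irx5 changed by 0.034, 0.28 and 0.30. On leaving out 1 library Irx2 ranged from -0.18 to 0.037 and Irx4 from -0.12 to 0.10. Irx4 between WT stages was 0.033 with TMM factors and 0.12 with DESeq2. The difference between stages at Six3 was -0.028 with DESeq2. With autosomal sums the cluster counts changed by 0.11 at IrxA, 0.066 at IrxB and 0.043 at Six6, and on leaving out 1 library IrxA ranged from -0.12 to 0.032. Counts prorated to the window gave -0.31 at Six2-Six3 (exact permutation p = 0.05). Covered bases of IrxB changed by -0.0058 with 10 kb flanks and by -0.15 to 0.14 on leaving out 1 library, and those of IrxA by -0.20 to 0.021. Causes were not tested, except that covered length as an offset removes by construction what a longer covered stretch adds.

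Correlations of the deviations of same-numbered replicates ran from -0.25 to 0.25. They were 0.23, 0.03 and 0.11 between E12.5 WT and KO and -0.25, -0.08 and -0.14 between E15.5 WT and KO. Whether the numbers pair the samples cannot be told from these values. With a replicate block 2 member regions were called at E12.5, Six3 and Irx6, and 1 for the difference between stages. Over all regions that block called 625 of 3236 lower at E12.5 and 272 of 2367 higher for the difference. Depth limits the weakest spacers: IrxB spacer 6 was covered over 2.6 kb in the shallowest library.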
